A study of Nasonia vitripennis with 79 samples.

Results

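The serine proteases and serine protease homologs of the parasitoid wasp Nasonia vitripennis were described in heads and abdomens of wasps that differed in sex, in number of chromosome sets and in generation. Members were all genes whose symbol was SP or SPH followed by a number. This gave 51 of the 14621 genes in the deposited table, of which 43 were SP genes (proteases) and 8 were SPH genes (homologs). Serine proteases of this kind cut other proteins with a catalytic triad of histidine, aspartate and serine, and homologs keep the fold but lack part of that triad. In insects such enzymes digest food, carry the cascades that activate prophenoloxidase for melanisation and the Toll ligand Spaetzle for antimicrobial peptide production, and occur in seminal fluid and venom. Homologs have no peptidase activity of their own, and in several insects they act as cofactors of the proteases in these cascades. The symbols give the class alone, so no role is given to single members.

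Poly(A) RNA came from the WOM line of N. vitripennis, in which unfertilised eggs normally give haploid males and fertilised eggs diploid females. The line was made polyploid by knockdown of a sex determination gene, which was not analysed here, and it also yields diploid males and triploid females. Every library carried the strain label WOM and was made from wasps sampled 1 day after emergence. Females were diploid (2N) or triploid (3N) at generations F2 and F14, and males haploid (1N) or diploid (2N) at F3 and F15, with heads and abdomens taken as separate libraries. The 5 libraries labelled F2 diploid female abdomen were left out, which left 74 of 79 libraries in 15 groups of 5, with 4 in F14 triploid female abdomens. Males were always sampled 1 generation after females, so sex and generation number cannot be told apart fully, and no libraries of an unmanipulated line were among those compared. The labels do not say if the libraries of a group were grown apart or pooled from several wasps, so p-values measure the spread between these libraries, which may be technical.

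Total expected counts per library ran from 12.63 to 94.98 M, and the F14 diploid female abdomens were the deepest group. The tissue labels were checked with marker genes. The eye opsin Lop1 was at 529 to 15667 TPM in the 40 head libraries and at 0 to 12.7 TPM in all abdomen libraries but D119, an F15 diploid male abdomen at 261 TPM. The germ plasm gene oskar was at 252 to 1059 TPM in female abdomens, 2.59 to 67.7 in heads and 0.91 to 15.3 in male abdomens. Among female abdomens the F2 triploid group stood apart: the muscle gene Zasp66 was at 1.91 to 8.03 TPM in it, against 51.1 to 414 TPM at F14, and the synaptic gene Syt1 at 1.76 to 2.0 against 5.99 to 19.2 TPM. The muscle gene Tm1 was lower in it too, at 303 to 366 against 708 to 3072 TPM. The muscle gene Tm2 went the other way, at 75.8 to 93.3 against 31.5 to 87.2 TPM, with overlap. D89, an F14 triploid female abdomen, was the lowest of its group of 4 in Zasp66, at 136 TPM, and in Tm1, at 1250 TPM. It was not the lowest in Tm2, at 50.4 TPM in a group range of 31.5 to 68.3 TPM. D31 and D32, both F2 triploid female heads, had Lop1 at 3579 and 2473 TPM, against 9129, 11297 and 15667 TPM in the other three of the group. No marker of testis, venom gland or gut was matched by symbol, so organs within an abdomen were not told apart. In these bulk libraries, fewer cells of a type and less RNA per cell cannot be told apart either.

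Levels are given in TPM, a unit scaled for gene length and library depth, as the authors deposited them. Fold changes are log2 ratios of counts scaled by TMM, given ± SE, and adjusted p-values are from edgeR's quasi-likelihood test with Benjamini-Hochberg adjustment over all genes tested. The SE was derived from that test, as the absolute fold change divided by the square root of the F statistic. A gene is said to have risen or fallen at an adjusted p under 0.05. The filter on low counts was run over all libraries of a model, so a member could pass through 1 group alone, and counts and medians describe the members that passed. Most members were expressed in at least 1 group. A mean of at least 1 TPM in some group was reached by 40 of 43 SP and 7 of 8 SPH genes, at least 100 TPM by 19 and 4, and at least 1000 TPM by 3 SP genes (SP137, SP128 and SP50) and 1 SPH gene (SPH103). The members SP11, SP17, SP87 and SPH93 passed the filter on low counts in no comparison, and their highest value in any library was 1.48, 3.98, 1.13 and 1.63 TPM. The group of highest mean was a male abdomen for 21 SP and 3 SPH genes, a female abdomen for 12 and 2, a female head for 6 and 1, and a male head for 4 and 2. For SP10, SP11, SP87 and SPH93 that highest mean was under 1 TPM. The same tally was not made over all genes, so it is not shown to be particular to the members.

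**Figure D1:**
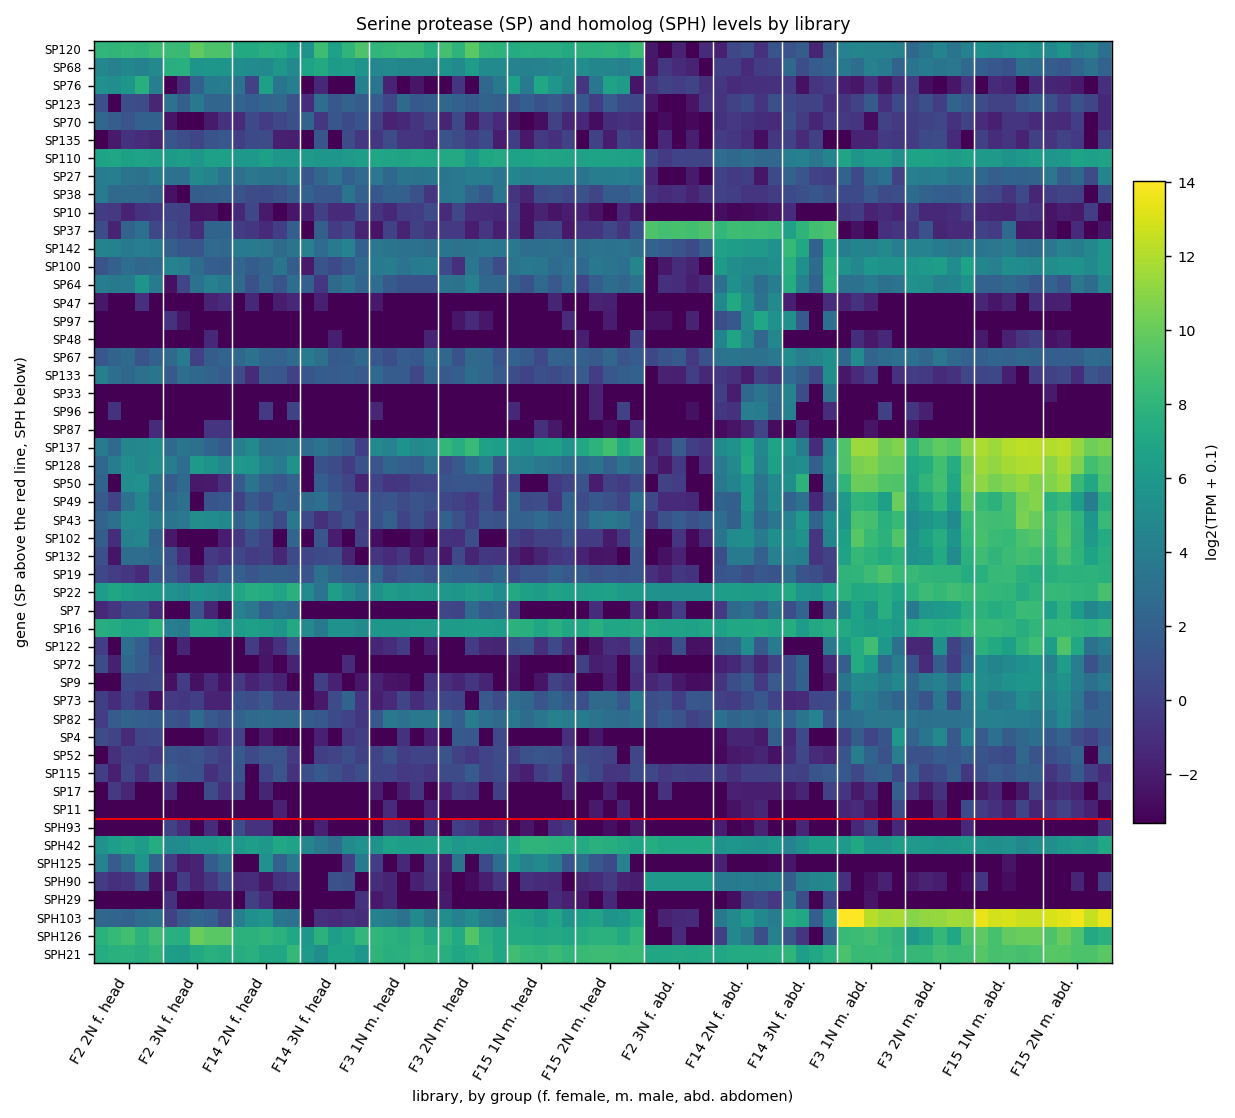
Level of each of the 51 members (rows) in each of the 74 libraries (columns, by group), as log2(TPM + 0.1), with SP genes above the red line and SPH genes below, each ordered by the sex and tissue of the highest group mean. By this ordering, 21 SP genes and 3 SPH genes with their highest mean in male abdomens form a block, SP11 and SP17 among them at trace levels. A smaller block has its highest mean in female abdomens, and the F2 triploid female abdomens are dark for most members.

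Summed over the class, SP genes took 837 to 1106 TPM in F2 diploid female heads, and their sum in the other head groups had medians between 579 (F14 triploid females) and 981 TPM (F15 diploid males). In female abdomens the SP sum was 587 to 785 TPM in F2 triploids, 836 to 1362 in F14 diploids and 734 to 1619.6 in F14 triploids. In male abdomens it was 2746 to 8549 TPM in F3 haploids, 1733 to 7368 in F3 diploids, 9537 to 17273 in F15 haploids and 2942 to 14898 in F15 diploids. Thus every male abdomen library had a higher SP sum than any female abdomen library. The 8 SPH genes summed to medians of 265 to 1056 TPM in head groups and 284 to 340.0 TPM in female abdomens, but to 3274 to 12009 TPM in male abdomens, where SPH103 made up most of the sum.

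Many members were neighbours. In RefSeq's gene order on assembly Nvit_psr_1.1, 28 of the 51 members stood in 9 runs in which each was within 10 genes of the next. In 4 of the 9 runs all members had their highest mean in the same sex and tissue: SP22, SP16 and SP19, and SP73 and SP72, in male abdomens, and SP97 and SP96, and SPH29 and SP33, in F14 female abdomens. In the other 5 runs the members did not share one. How often other genes stand in such runs, or share a peak by chance, was not determined. The counts of runs are therefore a description only. In the run SP123, SP128, SP120 and SPH126, SP120 was a head gene, SP128 was high in male abdomens, SPH126 was high in both, and SP123 stayed under 13 TPM in every library. SP47 and SP48 were found in female abdomens, and SP49 and SP52 beside them had their highest mean in male abdomens. SP37, the most abundant member of female abdomens, stood next to SP38, which was at 0.21 to 2.43 TPM in the same libraries. Counts that RSEM split between genes were common for SP16 (more than 0.001 from a whole number in 97.3% of libraries), its neighbour SP22 (95.95%), SP120 (66.22%) and its neighbour SP128 (55.41%). They also occurred for SP37 (33.78%). The levels of these members are therefore uncertain, and with which genes their reads were shared was not determined.

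**Figure D2:**
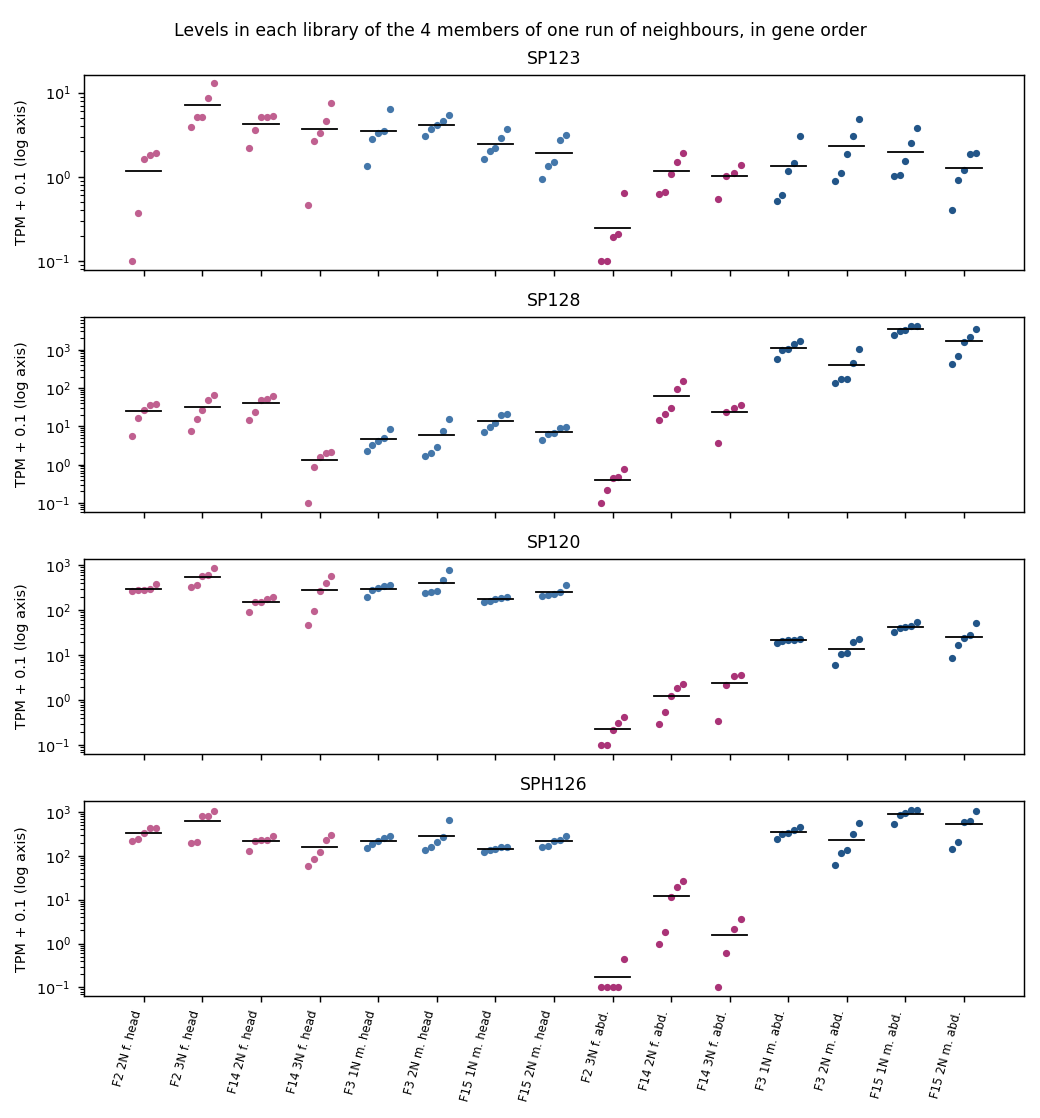
Level of SP123, SP128, SP120 and SPH126, 4 members within one stretch of gene order, in each library of the 15 groups (points, TPM + 0.1 on a log axis; bars are group means). SP120 is high in heads, SP128 in male abdomens and SPH126 in both, and all 4 are lowest in F2 triploid female abdomens.

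The comparison of abdomens with heads asked where members were expressed. In males most members that passed the filter on low counts were higher in abdomens: 24 of 33 SP genes rose and 4 fell, and 3 of 5 SPH genes rose and 2 fell, so 86.8% of members were called, against 82.4% of all genes tested, 42.2% higher and 40.2% lower. The median log2 difference was 2.14 for SP, 1.45 for SPH and 0.03 for all genes. The other 13 members did not pass the filter in males. They include SP33, SP47, SP48, SP96, SP97 and SPH29, none of which exceeded 1 TPM in any male library, so these counts do not cover all members. SP4, SP7, SP9, SP37, SP72, SP102 and SP132 passed in males but not in male heads alone, and SP76 and SPH125 not in male abdomens alone. The counts and medians of this comparison thus in part restate the filter.

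SPH103 was the most abundant member of every male abdomen group. Its level was 3159, 3516, 4531, 16574 and 16892 TPM in the 5 F3 haploid abdomens and 1894, 2388, 2459, 2846 and 3176 TPM in the F3 diploid ones. At F15 it was 6418, 6431, 7304, 8195 and 11085 TPM in haploids and 5970.0, 8311, 10206, 12101 and 13224 TPM in diploids. The lowest male abdomen was above every other library, since the highest level outside male abdomens was 172 TPM (log2 difference between male abdomens and heads 7.81 ± 0.30, adjusted p = 3.3e-23). D10 and D6, both F3 haploids, were at 16574 and 16892 TPM, far above the other three.

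SP137 came second in all 4 male abdomen groups. It was at 599.9, 1235, 1760.2, 2717 and 2941 TPM in F3 haploids and 248, 536, 709, 914 and 2062 TPM in F3 diploids, groups that overlapped. It was at 2889, 3876, 4377, 5047 and 5278 TPM in F15 haploids and 1170.5, 1526, 2503, 4240.2 and 4777 TPM in F15 diploids, groups that overlapped too. The log2 difference from male heads was 4.92 ± 0.30 (adjusted p = 1.9e-17), smaller than that of SP128 (8.02 ± 0.36) or SP50 (10.37 ± 0.44), and SP137 was also present in male heads, at 21.1 to 433 TPM. SP128 was at 2437 to 4260.1 TPM and SP50 at 1445 to 2537 TPM in F15 haploid abdomens, and at most 20.6 and 2.43 TPM in any male head. SP102 (log2 fold change 9.74 ± 0.47, adjusted p = 2.5e-20), SP7 (log2 fold change 9.72 ± 0.53, adjusted p = 2.2e-17) and SP132 (log2 fold change 9.51 ± 0.36, adjusted p = 1.7e-23) differed as widely, from levels of at most 4.38, 6.7 and 2.24 TPM in male heads.

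SP19 varied little among male abdomens. It was at 252 to 586 TPM in F3 haploids, 174 to 323 in F3 diploids, 183 to 349.6 in F15 haploids and 199.8 to 243 in F15 diploids, and at 0 to 8.31 TPM in all other libraries. Male abdomens and the other libraries did not overlap, and the difference from male heads was wide (log2 fold change 7.21 ± 0.17, adjusted p = 8.1e-29). The homolog SPH21 was present everywhere, at 271 to 793 TPM in male abdomens and 116.05 to 414 TPM in male heads, with a log2 difference of 1.45 ± 0.11 (adjusted p = 6.3e-15). SPH126 was higher in male abdomens as well (log2 fold change 1.57 ± 0.26, adjusted p = 1.5e-06), at 62.4 to 1099 TPM against 122.4 to 642 TPM in male heads, with overlapping ranges.

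In females members differed between abdomens and heads in both directions. Of 39 SP genes that passed the filter, 14 were higher and 11 lower in abdomens than in heads, and of 7 SPH genes 4 were higher and 2 lower. This was 67.4% of members, against 86.7% of all genes tested, 40.8% higher and 45.9% lower, with medians of 0.66 for SP, 0.88 for SPH and −0.18 for all genes. The contrast averaged F14 diploids, F14 triploids and F2 triploids, of which the F2 abdomens stood apart in markers. SP9, SP33, SP47, SP48, SP72, SP96, SP97, SP122, SPH29 and SPH90 passed the filter in female abdomens but not in female heads alone. SP52, SP135 and SPH125 did the reverse, so these counts and medians in part restate the filter.

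SP37 was the most abundant member of female abdomens and absent or nearly so elsewhere. It was at 434, 461, 509.5, 587 and 592 TPM in F2 triploid, 296, 334, 366, 379.8 and 393 TPM in F14 diploid and 97.6, 246, 444 and 528 TPM in F14 triploid abdomens. The highest value in any head or male abdomen was 8.19 TPM, so the lowest female abdomen, D86, still lay above them (log2 fold change 8.35 ± 0.48, adjusted p = 1.8e-16). The homolog SPH90 was also found in female abdomens, at a lower level. It was at 63, 63.9, 64.6, 68.3 and 68.8 TPM in F2 triploid, 13.2, 13.7, 14.6, 15.2 and 15.4 TPM in F14 diploid and 3.66, 16.6, 24.3 and 28 TPM in F14 triploid abdomens, and at 0 to 1.84 TPM in all other libraries (log2 fold change 5.87 ± 0.49, adjusted p = 1.2e-12). Both were high in the F2 triploid abdomens too, where a median of 9 of the 43 SP genes reached 1 TPM, against 26 and 28 in F14 diploid and triploid abdomens.

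SP97 varied widely between libraries of one group. It was at 1.74, 2.54, 33.2, 43.3 and 136 TPM in F14 diploid and 0, 2.81, 8.12 and 41.9 TPM in F14 triploid abdomens, but at no more than 0.23 TPM in F2 triploid abdomens and 0.48 TPM in heads of females. The 2 F14 groups overlapped, and the difference from heads was 7.82 ± 1.57 (adjusted p = 0.00013). SP102 was higher in female abdomens than in heads too in this contrast (log2 fold change 3.77 ± 0.75, adjusted p = 3.2e-05). It was at 10.8 to 40.9 TPM in F14 diploid and 0.5 to 46.1 TPM in F14 triploid abdomens, but at 0 to 0.54 TPM in F2 triploid abdomens. F2 diploid heads, which the contrast left out, were at 0.38 to 23.4 TPM. With the F14 females alone, the differences of SP37, SPH90, SP97 and SP102 were 8.53 (adjusted p = 8.9e-11), 5.28 (adjusted p = 1.3e-06), 12.06 (adjusted p = 0.00024) and 5.1 (adjusted p = 1.5e-05), in that order.

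Head genes were fewer. SP120 was at 46.4 to 875 TPM in female heads and 0 to 3.45 TPM in female abdomens, ranges far apart (log2 fold change −8.29 ± 0.42, adjusted p = 6.0e-18). In males it was at 150.1 to 769 TPM in heads and 5.82 to 53.7 TPM in abdomens (log2 fold change −2.93 ± 0.22, adjusted p = 1.1e-14). SP68 followed it, with a log2 difference of −6.05 ± 0.31 in females (adjusted p = 1.1e-17) and −1.47 ± 0.21 in males (adjusted p = 5.5e-08). In females SPH126 was a head gene. It was at 57.5 to 1067 TPM in female heads and 0 to 27.1 TPM in female abdomens (log2 fold change −7.66 ± 0.56, adjusted p = 5.0e-14), whereas in males it was higher in abdomens. The difference between the sexes in this tissue effect was not tested. SP76 was lower in female abdomens (log2 fold change −3.59 ± 0.77, adjusted p = 8.5e-05). The heads in that contrast were uneven, at 0 to 15.6 TPM in F2 triploids, 0.95 to 92.1 TPM in F14 diploids and 0, 0, 0, 0.3 and 19.7 TPM in F14 triploids. F2 diploid heads, which the contrast left out, were at 17.5, 36.1, 44.8, 58.9 and 189 TPM. The call of SP76 was lost without D85 (adjusted p 0.153). The homolog SPH125 was at or near 0 in all abdomens, at most 0.2 TPM, and uneven in heads, at 3.04, 4.85, 7.83, 20.6 and 51.7 TPM in F2 diploid females and 2.23, 15.6, 20.4, 31.4 and 50.8 TPM in F15 haploid males. SPH42, like SPH126, was called in opposite directions in the sexes, but by less: it was 0.88 ± 0.22 in female abdomens (adjusted p = 0.00040) and −0.43 ± 0.14 in male abdomens (adjusted p = 0.0061) relative to heads. The call of SPH42 in females was lost with F14 females alone (adjusted p 0.11).

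**Figure D3:**
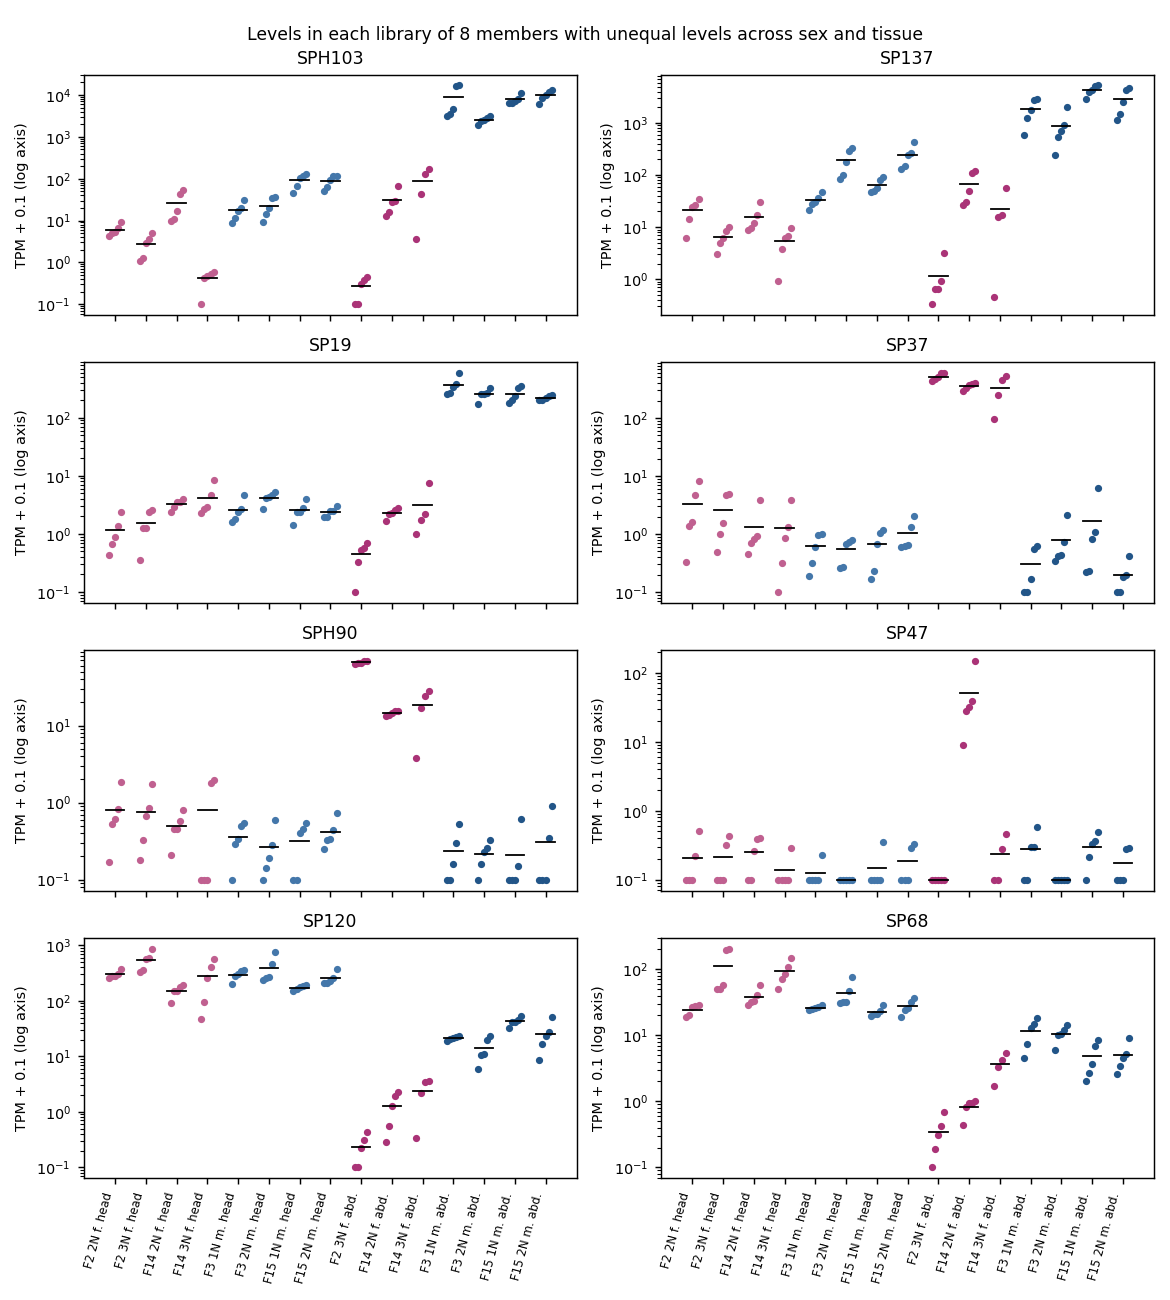
Level of SPH103, SP137, SP19, SP37, SPH90, SP47, SP120 and SP68 in each library of the 15 groups (points, TPM + 0.1 on a log axis; bars are group means). SPH103, SP137 and SP19 are highest in male abdomens, SP37 and SPH90 in female abdomens, SP47 in F14 diploid female abdomens alone, and SP120 and SP68 in heads.

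Diploid females were compared first with diploid males, at equal ploidy, and then with the haploid males that the species normally has. The female libraries are shared by both comparisons, which are therefore not independent. In abdomens the F14 diploid females and F15 diploid males differed in 28 of 38 SP genes, 8 higher in females and 20 higher in males, and in 5 of 6 SPH genes, 2 and 3, in all 75% of members against 80.6% of all genes tested, 41.1% higher and 39.4% lower. The median was −1.79 for SP and −1.38 for SPH genes, against −0.02 for all genes. Against haploid males 10 SP genes were higher and 23 lower, and 2 SPH genes higher and 3 lower (86.4% of members, 78.6% of all genes tested, 42% higher and 36.7% lower). SP4 and SP52 passed the filter in male abdomens but not in female abdomens alone. SP33, SP47, SP48, SP76, SP96, SP97, SPH29 and SPH90 did the reverse, so these counts and medians in part restate the filter.

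Members higher in males by the widest margin, with fold changes given as female over male, were SPH103 (log2 fold change −8.45 ± 0.80, adjusted p = 5.5e-11), SP19 (log2 fold change −6.78 ± 0.47, adjusted p = 5.6e-14), SP72 (log2 fold change −5.73 ± 1.08, adjusted p = 1.8e-05) and SP137 (log2 fold change −5.51 ± 0.80, adjusted p = 2.8e-07). In F14 diploid female abdomens SPH103 was at 12.9, 15.9, 28.1, 29.5 and 66.6 TPM, SP137 at 26.9, 29.7, 49.4, 107.7 and 119.1 TPM and SP72 at 0.19 to 0.88 TPM. Each of these genes was thus detected in female abdomens, but the highest female library lay below the lowest F15 diploid male one. Against haploid males, SPH126 (log2 fold change −6.29 ± 0.80, adjusted p = 3.0e-08) and SP50 (log2 fold change −6.24 ± 1.07, adjusted p = 4.6e-06) were among the 4 widest in place of SP72 and SP137.

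Of the 8 SP genes higher in female abdomens, 5 stayed under 1 TPM in every male abdomen: SP33, SP47, SP48, SP96 and SP97. SP67 (log2 fold change 1.02 ± 0.41, adjusted p = 0.025) and SP142 (log2 fold change 1.53 ± 0.53, adjusted p = 0.0096), named to complete the count, were present in both sexes, at 9.03 to 12.2 and 43.5 to 103.8 TPM in F14 diploid females and 3.55 to 32.7 and 6.85 to 56.8 TPM in male abdomens. The call of SP67 was lost without D116, D117, D118 or D99 (adjusted p 0.0543 to 0.0591), by DESeq2 (adjusted p 0.18) and with no filter (adjusted p 0.11). SP47 was at 8.94, 28.1, 32.3, 39.2 and 149 TPM in F14 diploid female abdomens and SP48 at 5.34, 22.7, 26.6, 28.7 and 112.8 TPM, with D96 the highest and D98 the lowest for both. In the 20 male abdomens SP47 was at most 0.48 TPM and SP48 at most 0.9 TPM (F14 diploid females over F15 diploid males, log2 fold change 9.13 ± 1.02, adjusted p = 2.4e-08 for SP47 and log2 fold change 9.44 ± 1.09, adjusted p = 1.2e-07 for SP48). SP97 was at 0 in all 20 male abdomens, and SP37 was at most 6.02 TPM (log2 fold change 11.61 ± 0.94, adjusted p = 1.9e-12). The homolog SPH90 was higher in females (log2 fold change 6.11 ± 0.79, adjusted p = 3.6e-08), and SPH29 was at 0, 0.06, 0.63, 0.89 and 1.29 TPM in F14 diploid female abdomens and at 0 in all F15 male abdomens. SPH21 (log2 fold change −2.19 ± 0.22, adjusted p = 2.4e-10) and SPH126 (log2 fold change −5.5 ± 0.78, adjusted p = 1.7e-07) were higher in males, and SPH42 did not pass the test at equal ploidy (log2 fold change −0.57 ± 0.29, adjusted p = 0.070).

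**Figure D4:**
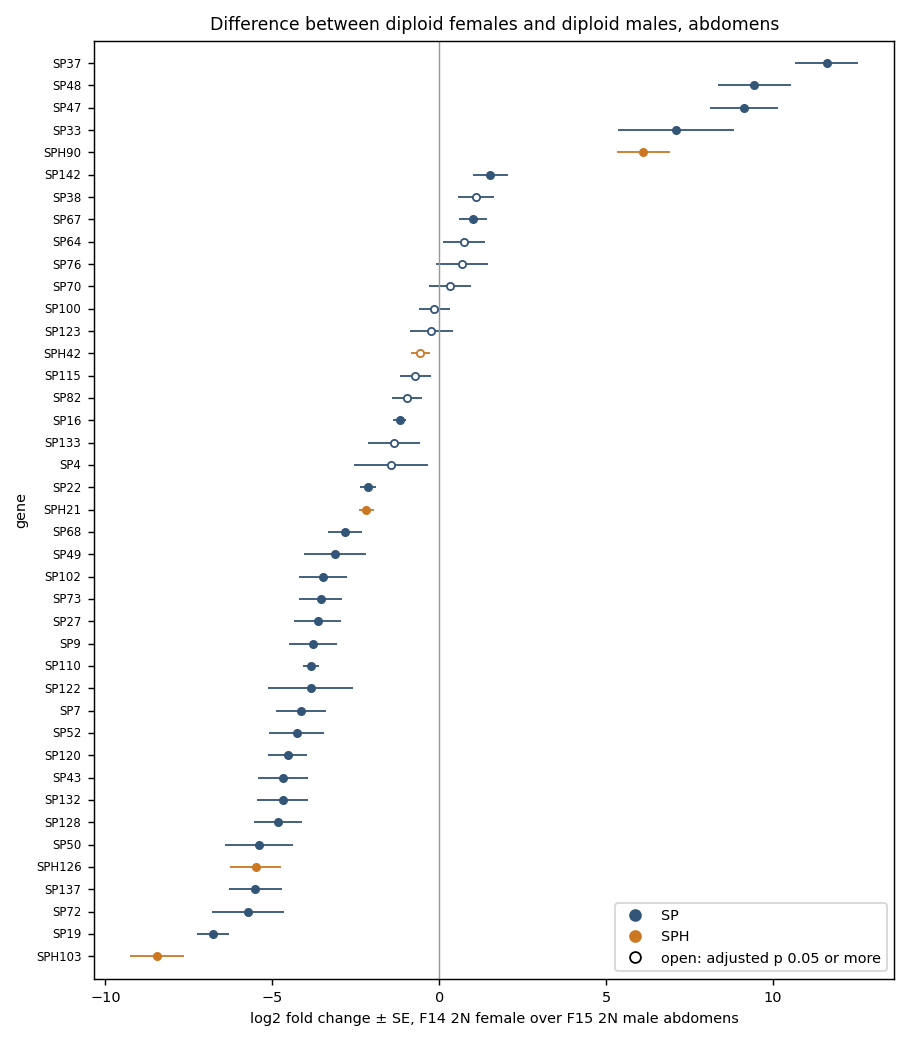
Log2 fold change ± SE of each member tested, F14 diploid female over F15 diploid male abdomens (5 libraries each), SP in blue and SPH in orange, with open points at an adjusted p of 0.05 or more. SP96, SP97 and SPH29, at 0 in every F15 diploid male abdomen, are left out; points right of 0 are SP37, SP48, SP47, SP33, SPH90 and a few smaller values, and most others lie left of 0.

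Germ plasm markers differed with sex in the same libraries: oskar was at 646 to 875 TPM in F14 diploid female and 0.91 to 2.93 TPM in F15 diploid male abdomens, and nanos at 309 to 472 and 0 to 0.27 TPM. Zasp66 (−2.61 ± 0.30), Syt1 (−1.86 ± 0.22), Hex70b (−5.23 ± 0.72), Hex83 (−0.94 ± 0.43) and Lop1 (−9.68 ± 1.71), which was high in D119 alone, were lower in females, Tm2 was higher (0.74 ± 0.10), and Tm1 (−0.33 ± 0.18) and Hex109 (0.17 ± 0.33) were not called. The part of these markers in the members' differences was not tested.

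In heads SP137 and SPH103 were lower in females. Between diploid females and diploid males 6 of 32 SP genes were higher and 3 lower in females, and 1 of 5 SPH genes was lower, or 27% of members against 24.5% of all genes tested, 10.8% higher and 13.7% lower. Against haploid males 11 SP genes were higher and 3 lower and 1 SPH gene lower, 40.5% against 21.1% of all genes tested, 10.6% higher and 10.6% lower. SP7, SP37, SP102, SP132 and SP135 passed the filter in female heads but not in male heads alone, and SP122 did the reverse. The counts for heads thus in part restate the filter. The genes that were lower in female heads at both ploidies were SP137, SPH103, SP110 and SP82, of which the first 2 were also the male abdomen genes of highest level.

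SP137 was at 5.98, 14, 24.2, 26 and 34.3 TPM in F2 and 8.89, 9.48, 11.8, 17.1 and 30.4 TPM in F14 diploid female heads. In diploid male heads it was at 84.7, 98.3, 178, 290.4 and 329 TPM at F3 and 131, 146, 242, 270.0 and 433 TPM at F15. The sexes did not overlap at equal ploidy (log2 fold change −3.77 ± 0.40, adjusted p = 6.8e-09), and the difference from haploid males was smaller (log2 fold change −1.36 ± 0.37, adjusted p = 0.0069). SPH103 was lower in female heads than in diploid (log2 fold change −1.95 ± 0.37, adjusted p = 0.00019) and haploid males (log2 fold change −1.64 ± 0.37, adjusted p = 0.0012), with 4.18, 4.88, 5.2, 6.62 and 9.08 TPM at F2 and 9.4, 10.7, 17.3, 42.8 and 53.2 TPM at F14 in diploid females. Diploid male heads were at 8.89 to 36.6 TPM at F3 and 50.98 to 116.9 TPM at F15. Haploid ones were at 8.87 to 31.1 and 46.4 to 132 TPM, so on the TPM scale the sexes overlapped for SPH103. The difference of SP110 was small, −0.38 ± 0.10 (adjusted p = 0.0047) against diploid males. Among the genes higher in female heads was SP128. It was at 5.38, 16.3, 26.7, 35.6 and 38.9 TPM at F2 and 14.3, 23, 47.6, 51.9 and 60.9 TPM at F14 in diploid females, against 1.61 to 15.6 and 4.27 to 9.57 TPM in diploid males (log2 fold change 2.14 ± 0.46, adjusted p = 0.00078). SP142 was higher against haploid males alone (log2 fold change 0.72 ± 0.26, adjusted p = 0.040). The call of SP142 was lost without any of 15 single libraries (adjusted p 0.0588 to 0.096) and by limma on TPM (adjusted p 0.052). The muscle markers Tm1 (1.42 ± 0.25) and Zasp66 (1.54 ± 0.33) were also higher in diploid female than diploid male heads, Tm2 was not called (0.05 ± 0.09), and their part was not tested.

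The ploidy comparisons asked whether members changed with an added chromosome set. In F2 female heads 3 of 30 SP genes were higher in triploids and 6 lower, and 0 of 5 SPH genes were called, in all 25.7% of members against 42.4% of all genes tested, 21.7% higher and 20.7% lower. Of the SPH genes 1 had an unadjusted p under 0.05, and 1 was called by DESeq2, which called 15 members where edgeR called 9. On TPM with limma 3 members were higher and 10 lower.

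SP68 rose with the added set in F2 female heads. It was at 18.9, 19.9, 26.6, 27.5 and 28.8 TPM in diploids and 50.5, 50.9, 57.5, 194 and 205 TPM in triploids, with no overlap (log2 fold change 2.12 ± 0.38, adjusted p = 0.00020), and D31 and D32 were its highest 2 triploid libraries. Without D31 and D32 the difference was 1.31 (adjusted p = 0.0025). SP142 fell from 14.3, 14.6, 17.2, 20.1 and 22.2 TPM to 2.33, 2.42, 3.75, 6.37 and 6.78 TPM, groups that did not overlap (log2 fold change −2.13 ± 0.46, adjusted p = 0.0011). SP50 (log2 fold change −3.33 ± 1.19, adjusted p = 0.030) and SP137 (log2 fold change −1.6 ± 0.58, adjusted p = 0.032) were lower with overlapping libraries. The call of SP50 was lost without D23, D24, D33, D34 or D35 (adjusted p 0.0588 to 0.0924), by limma on TPM (adjusted p 0.13) and with the groups fitted alone (adjusted p 0.058). The call of SP137 was lost without D24, D25, D31, D34 or D35 (adjusted p 0.0649 to 0.0851) and without both D31 and D32 (adjusted p 0.085). At lower levels, and chosen after their values were seen, SP70 fell from 2.29, 3.81, 4.05, 4.05 and 5.18 TPM to 0, 0, 0.1, 0.14 and 0.48 TPM and SP102 from 0.38, 3.41, 4.83, 19.5 and 23.4 TPM to 0, 0, 0, 0.13 and 0.15 TPM. Neither pair of groups overlapped (SP70 −4.81 ± 0.86, adjusted p = 0.00019, and SP102 −6.56 ± 1.45, adjusted p = 0.0012). At F14 SP102 was at most 4.9 TPM in diploid and 2.41 TPM in triploid heads, so its call in part restates the filter.

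In F14 female heads 3 SP genes were higher in triploids and 3 lower, and 2 of 5 SPH genes were lower (22.9% of members, 29.7% of all genes tested, 16% higher and 13.7% lower). On TPM with limma, where the median of all genes was −0.60, 2 members were higher and 12 lower, and DESeq2 called 5 and 5. SPH103 was at 0, 0.32, 0.38, 0.44 and 0.49 TPM in triploid heads and at 9.4 to 53.2 TPM in diploid ones, a difference of −5.86 ± 0.77 (adjusted p = 2.5e-05). SPH42 was at 60.1, 62.6, 85, 105.3 and 137 TPM in diploids and 7.37, 12.4, 24.1, 32.4 and 44.7 TPM in triploids, with no overlap (log2 fold change −1.43 ± 0.42, adjusted p = 0.015). SP22 fell as well, to 9.76 to 79.8 TPM in triploids against 111.2 to 208 TPM in diploids (log2 fold change −1.54 ± 0.46, adjusted p = 0.016), and so did SP128, from 14.3, 23, 47.6, 51.9 and 60.9 to 0, 0.76, 1.49, 1.95 and 2.02 TPM (log2 fold change −4.6 ± 0.80, adjusted p = 0.00029), neither with overlap. The call of SP22 was lost with the groups fitted alone (adjusted p 0.061). SP7, chosen after its values were seen, was at 3.58, 5.09, 6.75, 11.7 and 19.4 TPM in diploids and at 0 in all 5 triploid heads (adjusted p = 0.0019). In F2 heads SP7 was at most 1.53 TPM in diploids and 2.31 TPM in triploids. It could thus pass the filter through F14 diploids alone, so this call in part restates the filter. SP68 was again higher in triploids, at 28.7, 31.8, 33, 40.6 and 57.9 TPM in diploids and 50.6, 70.8, 85.5, 109.3 and 149 TPM in triploids (log2 fold change 1.87 ± 0.38, adjusted p = 0.0011). The groups overlapped only in that D85, the lowest triploid, lay below the highest diploid. SP110 was higher as well on the TMM scale (log2 fold change 0.54 ± 0.18, adjusted p = 0.030). On the TPM scale it was alike, with means of 65.9 TPM in diploids and 65.8 TPM in triploids. The call of SP110 was lost without D81, D91, D92, D94 or D95 (adjusted p 0.0535 to 0.0943) and by limma on TPM (adjusted p 0.98).

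The triploid effect itself differed between F2 and F14 in 9 members, which is 25.7% of members against 24.3% of all genes tested, 12.9% positive and 11.4% negative. The interaction was positive for SP70, SP102, SP38, SP142, SP133 and SP110 and negative for SP7, SP128 and SPH103, or 5 positive and 9 negative on TPM with limma. SP70 was lower in triploids at F2, and at F14 was at 0.31, 0.72, 1.2, 1.31 and 1.81 TPM in diploids and 0.58, 1.42, 2.14, 2.43 and 4.44 TPM in triploids, with overlap and not called (log2 fold change 1.71 ± 0.74, adjusted p = 0.088; interaction 6.52 ± 1.13, adjusted p = 0.00043). SPH103 was at 0.97, 1.16, 2.84, 3.58 and 5.07 TPM in F2 triploid heads, not called from F2 diploids (log2 fold change −0.99 ± 0.60, adjusted p = 0.19), and its interaction was −4.87 ± 0.94 (adjusted p = 0.0011). The call of SP38 was lost without D21, D81, D84, D92, D93 or D94 (adjusted p 0.0511 to 0.0728). The call of SP102 was lost without any of 11 single libraries (adjusted p 0.0503 to 0.12) and by limma on TPM (adjusted p 0.072). SP142 had an interaction of 3.0 ± 0.64 (adjusted p = 0.0023), with F14 levels of 6.32 to 13.6 TPM in diploids and 4.2 to 20.5 TPM in triploids, which overlapped. SP68 did not pass the test of the difference (interaction −0.25 ± 0.52, adjusted p = 0.77). Markers moved in these heads: Tm1 and Zasp66 fell in F2 triploids (−3.18 ± 0.48 and −2.79 ± 0.53) and rose in F14 triploids (2.25 ± 0.46 and 1.94 ± 0.52), while Tm2, the third muscle gene, was called in neither. Lop1 was called in neither (0.26 ± 0.48 and −1.2 ± 0.49), and Syt1 rose at F14 (0.82 ± 0.29). Their part in the members' values was not tested.

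In F3 male heads 4 of 26 SP genes were higher in diploids than in haploids and 0 were lower, and 0 of 5 SPH genes were called, 12.9% of members against 16.2% of all genes tested, 9.86% higher and 6.3% lower. SP137 was at 21.1, 28.4, 30.8, 36.5 and 47.9 TPM in haploids and at 84.7 to 329 TPM in diploids, groups that did not overlap (log2 fold change 2.96 ± 0.50, adjusted p = 0.00094). SP38 was at 0.51, 1.91, 2.63, 3.94 and 4.13 TPM in haploids and 2.69, 5.04, 10.2, 11.1 and 12.3 TPM in diploids (log2 fold change 1.66 ± 0.44, adjusted p = 0.016), with overlap. SP68 was at 24.2, 24.5, 25.5, 26.8 and 28.7 TPM in haploids and 30.9, 31.9, 32.3, 47 and 76 TPM in diploids, with no overlap (log2 fold change 1.18 ± 0.36, adjusted p = 0.032). The call of SP38 was lost by limma on TPM (adjusted p 0.081) and with the groups fitted alone (adjusted p 0.065). The call of SP68 was lost without D1, D13, D1A, D4 or D5 (adjusted p 0.0533 to 0.119), by limma on TPM (adjusted p 0.079) and with the groups fitted alone (adjusted p 0.16). The count of 4 was 2 without D1A, D4 or D5, 7 by DESeq2 and 1 with the F3 groups fitted alone, which was SP137. Of the SPH genes 1 had an unadjusted p under 0.05 and 1 was called by DESeq2. On TPM with limma 2 members were higher and 1 lower.

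In F15 male heads edgeR called 0 of 31 members, with 4 at an unadjusted p under 0.05, against 0.109% of all genes tested, 0.0182% higher and 0.0908% lower, while DESeq2 and the fit of the F15 groups alone called 1 each, SP137 both times. SP137 was at 47.4, 48.9, 55.9, 81.3 and 92.5 TPM in haploids, below every diploid library, whose values were 131 to 433 TPM. Its difference of 1.8 ± 0.48 did not pass the test (adjusted p = 0.20), but did by DESeq2 (adjusted p = 0.016) and with the F15 groups alone (adjusted p = 0.035); over all alternatives that kept every library its adjusted p ran from 0.0161 to 0.21, and it was not called without any 1 library. The difference of the ploidy effect between F3 and F15 was −1.16 ± 0.66 for SP137 (adjusted p = 0.31), and 0 members were called for it by edgeR, against 3.57% of all genes tested, 1.3% positive and 2.27% negative. By DESeq2 3 were called, and 7 had an unadjusted edgeR p under 0.05.

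**Figure D5:**
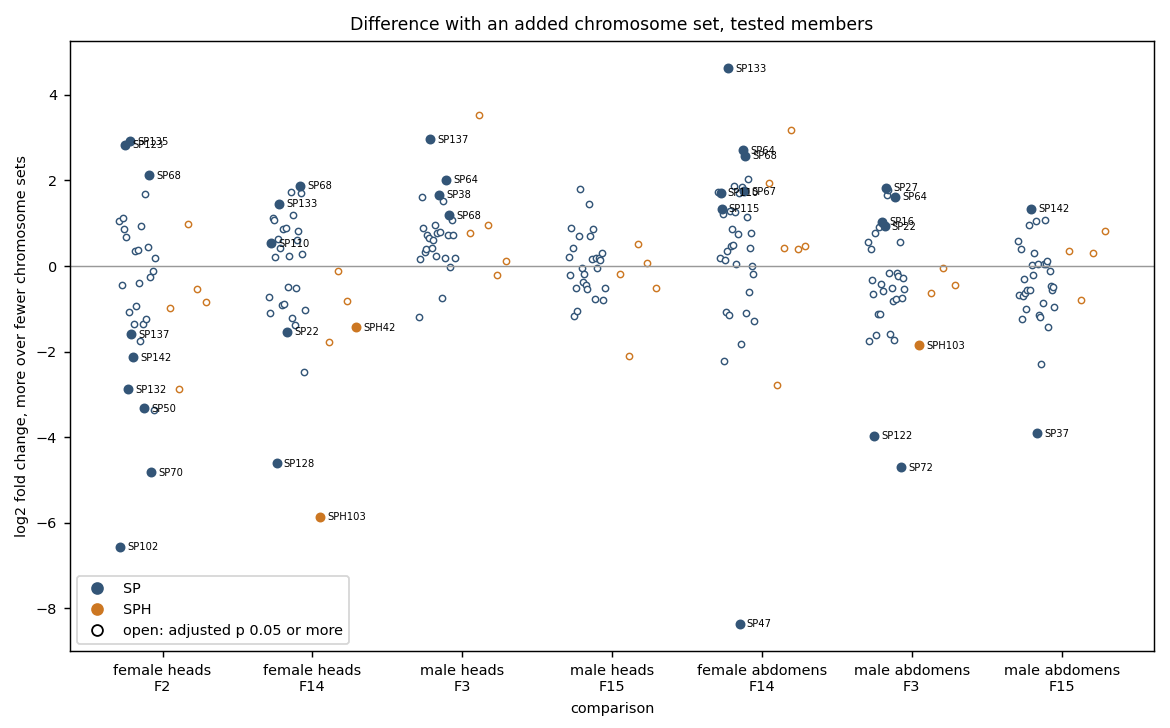
Log2 fold change of each tested member with an added chromosome set (triploid over diploid females, diploid over haploid males) in the 7 comparisons, SP in blue and SPH in orange, with filled and named points at an adjusted p under 0.05. SP68 is named above 0 in 4 comparisons, F15 male heads have no filled point, and SP7 in F14 female heads and SP48 in F14 female abdomens, at 0 in all triploids, are left out.

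In F14 female abdomens 6 of 36 SP genes were higher in triploids and 2 lower, and 0 of 6 SPH genes were called, 19% of members against 37.8% of all genes tested, 21.9% higher and 15.9% lower. Of the SPH genes 3 had an unadjusted p under 0.05 and 0 were called by DESeq2, and on TPM with limma 6 members were higher and 4 lower. SP47 and SP48, at the levels given above in diploids, were at 0, 0, 0.18 and 0.36 TPM and at 0 in all 4 triploid abdomens (adjusted p = 0.00048 and 0.0020). The diploid libraries were also the deepest, at 46.0 to 94.98 M counts against 16.9 to 17.5 M. SP47 and SP48 were at 0 in all 5 F2 triploid abdomens too, so neither was detected above 0.36 TPM in any of the 9 triploid abdomens. Both could pass the filter only through the F14 diploids, so these 2 lower calls in part restate the filter. SP67 rose from 9.03, 9.21, 9.27, 10.5 and 12.2 TPM in diploids to 16.9, 24.2, 33.2 and 40.3 TPM in triploids, and SP110 from 5.22, 5.4, 5.75, 7.21 and 7.56 to 10.9, 17.4, 19.8 and 21.9 TPM, both without overlap (log2 fold change 1.75 ± 0.35, adjusted p = 0.0018 for SP67 and log2 fold change 1.71 ± 0.23, adjusted p = 0.00011 for SP110). SP133 (log2 fold change 4.62 ± 0.89, adjusted p = 0.0015) ranged over 1.18, 3.72, 6.56 and 38.9 TPM in triploids, with D90A the highest, and without D90A its difference was 3.28 (adjusted p = 0.0036). SP64 (log2 fold change 2.71 ± 0.85, adjusted p = 0.022) was at 7.69, 8.38, 15.7, 21.9 and 42 TPM in diploids and 4.46, 19.2, 175 and 222 TPM in triploids, which overlapped. The call of SP64 was lost without D86 or D98 (adjusted p 0.052 to 0.0826), by limma on TPM (adjusted p 0.24) and with the groups fitted alone (adjusted p 0.057). SP68, chosen after its values were seen, was at 0.34, 0.73, 0.83, 0.85 and 0.9 TPM in diploids and 1.61, 3.25, 4.14 and 5.35 TPM in triploids, so it was higher with the added set here too (log2 fold change 2.58 ± 0.61, adjusted p = 0.0051). It was not called with the added set in F15 male heads or in male abdomens. Haploid and diploid male abdomens had SP68 means of 11.5 and 10.5 TPM at F3 and 4.67 and 4.90 TPM at F15. D89 moved this comparison: without it 18 members were called, and 14 without D90A. Among the triploids it was lowest for SP50, at 0, 14.8, 40.3 and 237 TPM in the 4 libraries, for SP142, at 4.11, 123.6, 137 and 316 TPM, and for SPH103. Zasp66 (2.48 ± 0.38), Tm1 (1.44 ± 0.21) and Syt1 (1.83 ± 0.30) were higher and nanos (−1.46 ± 0.37) lower in triploid abdomens, Lop1 (3.66 ± 1.35) and Hex70b (3.38 ± 0.84) were also higher, oskar (−0.26 ± 0.27), Tm2 (−0.26 ± 0.11), Hex109 (0.12 ± 0.39) and Hex83 (1.09 ± 0.55) were not called, and their part was not tested.

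In F3 male abdomens 4 of 32 SP genes were higher in diploids and 2 lower, and 1 of 4 SPH genes was lower, 19.4% of members against 16.6% of all genes tested, 8.03% higher and 8.54% lower. SPH103 was lower in diploids (log2 fold change −1.85 ± 0.42, adjusted p = 0.0062), at 1894 to 3176 TPM against 3159 to 16892 TPM in haploids, ranges that met at their ends. SP16 was at 64.9, 75.2, 88.6, 98.8 and 153 TPM in haploids and 167, 170.5, 192, 210.0 and 284 TPM in diploids (log2 fold change 1.03 ± 0.20, adjusted p = 0.0025), and its neighbour SP22, whose counts were as seldom whole, at 124.6, 147, 158, 197 and 223 and 236, 296, 329.8, 391 and 426 TPM (log2 fold change 0.93 ± 0.21, adjusted p = 0.0057). Both rose without overlap, and SP64 did so too, from 8.35, 8.81, 8.91, 9.74 and 13.2 to 19.3, 23.3, 37.8, 45.9 and 47.1 TPM (log2 fold change 1.62 ± 0.42, adjusted p = 0.015). SP72 (log2 fold change −4.71 ± 1.10, adjusted p = 0.0080) was at 3.72, 6.04, 16.5, 73.7 and 162 TPM in haploids and 0.31, 0.73, 1.93, 3.34 and 4.12 TPM in diploids, which overlapped at 1 library. SP122 (log2 fold change −3.96 ± 1.33, adjusted p = 0.049) and SP27 (log2 fold change 1.83 ± 0.57, adjusted p = 0.034) were called as well. The call of SP122 was lost without D10, D16, D17, D19, D20, D6, D7 or D8 (adjusted p 0.0553 to 0.13), with no filter (adjusted p 0.063) and with the groups fitted alone (adjusted p 0.070). The call of SP27 was lost without D10, D16, D17, D18, D19, D6 or D9 (adjusted p 0.0513 to 0.0825). Without D20 the count of 7 was 11, and by DESeq2 it was 12, 5 higher and 7 lower. Zasp66 (−0.93 ± 0.20) and Syt1 (−0.53 ± 0.16) fell in the same diploids while Tm1 and Tm2 were not called, and their part was not tested.

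In F15 male abdomens 2 of 36 members were called, 1 higher and 1 lower, or 5.56% against 11.1% of all genes tested, 7.83% higher and 3.26% lower. SP142 was at 6.85, 7.65, 10.7, 11.9 and 15.4 TPM in haploids and 11.6, 16.4, 20.8, 25.8 and 56.8 TPM in diploids, which overlapped (log2 fold change 1.34 ± 0.33, adjusted p = 0.017). The call of SP142 was lost without D109 or D120 (adjusted p 0.0506 to 0.061) and with the groups fitted alone (adjusted p 0.11). The other was SP37, named because it made up the count, at 0.12 to 6.02 TPM in haploids and 0 to 0.32 TPM in diploids (log2 fold change −3.9 ± 1.20, adjusted p = 0.043), a trace level in both. The call of SP37 was lost without D106, D107, D108, D116, D119 or D120 (adjusted p 0.0528 to 0.213), by limma on TPM (adjusted p 0.086) and with no filter (adjusted p 0.057). Of the 4 SPH genes 1 had an unadjusted p under 0.05 and 1 was called by DESeq2. Lop1 (7.06 ± 1.56), high in D119 alone, and Hex70b (2.25 ± 0.54) were higher and Hex109 (−0.93 ± 0.29) lower in diploids, and their part was not tested. The count was 7 without D117, 0 without D120 and 1 without D106, D107, D108, D109 or D119. The ploidy effect in male abdomens differed between F3 and F15 in 4 of 36 members (11.1%, against 10.4% of all genes tested, 5.99% positive and 4.44% negative), and SPH103 was among them (log2 fold change 2.2 ± 0.58, adjusted p = 0.023), lower in diploids at F3 and not called at F15 (log2 fold change 0.35 ± 0.40, adjusted p = 0.58). The call of SPH103 was lost by limma on TPM (adjusted p 0.061). Without D108 or D7 the count was 2, and by DESeq2 4 were positive and 2 negative.

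The generation comparisons set F14 or F15 against F2 or F3. The labels name no date or batch. Differences in rearing or handling between early and late libraries therefore cannot be told apart from generation. In female heads 5 of 30 SP genes were lower at F14 in diploids and 0 higher, and 1 of 5 SPH genes was higher (17.1% of members, 19.4% of all genes tested, 9.01% higher and 10.4% lower); the count of 6 was 14 with these groups fitted alone, 10 by DESeq2, 2 without D21 and 3 without D24, D25 or D91. On TPM with limma 4 were higher and 4 lower. In triploids 3 SP genes were higher and 4 lower, and 2 SPH genes were lower (25.7% of members, 15.6% of all genes tested, 8.08% higher and 7.52% lower), or 2 in all with the groups fitted alone. SP110 fell in diploid females from 91.1, 92.1, 106.9, 109.6 and 122.2 TPM at F2 to 58.8, 59.8, 61.1, 61.2 and 88.6 TPM at F14, groups that did not overlap (log2 fold change −1.1 ± 0.18, adjusted p = 0.00039). SP120 fell from 264, 279, 281, 300.0 and 375 to 91, 150.1, 151, 174 and 197 TPM, also without overlap (log2 fold change −1.39 ± 0.42, adjusted p = 0.025). SP64 fell in diploids as well (log2 fold change −2.45 ± 0.80, adjusted p = 0.038), from 12.9, 13.6, 14.6, 15.6 and 51.4 to 1.89, 2.22, 4.96, 6.34 and 7.57 TPM. The call of SP120 in diploids was lost without D21, D25, D91, D94 or D95 (adjusted p 0.0512 to 0.0629) and by limma on TPM (adjusted p 0.12). The call of SP64 in diploids was lost without D21, D24, D91, D92, D93 or D94 (adjusted p 0.0582 to 0.138) and by limma on TPM (adjusted p 0.11). SP133 fell from 5.77, 7.6, 8.56, 10.8 and 17 to 0.34, 0.98, 1.44, 2.55 and 2.73 TPM (log2 fold change −3.07 ± 0.51, adjusted p = 0.00039), and was chosen after its values were seen.

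In triploid heads the members of highest level that fell were SPH126 and SP128. SPH126 was at 198, 208, 789, 791 and 1067 TPM at F2 and 57.5, 83.3, 120.4, 229.9 and 289 TPM at F14, with D31 and D32 the lowest at F2 and within the F14 range (log2 fold change −2.09 ± 0.46, adjusted p = 0.0058). SP43 fell from 9.86, 12.2, 26.8, 33.4 and 38.9 to 0.42, 0.7, 0.92, 1.32 and 2.13 TPM and SP128 from 7.27, 15.6, 27.4, 48.9 and 65.4 to 0, 0.76, 1.49, 1.95 and 2.02 TPM, both without overlap (log2 fold change −3.73 ± 0.72, adjusted p = 0.0024 for SP43 and log2 fold change −4.88 ± 0.80, adjusted p = 0.00082 for SP128). SP27 fell with overlap (log2 fold change −1.56 ± 0.48, adjusted p = 0.034), and SP142 rose with overlap (log2 fold change 1.88 ± 0.46, adjusted p = 0.011). The call of SPH126 was lost with the groups fitted alone (adjusted p 0.081). The call of SP27 was lost without D33, D34, D81, D82B, D84 or D85 (adjusted p 0.0569 to 0.151) and with the groups fitted alone (adjusted p 0.17). The call of SP142 was lost with the groups fitted alone (adjusted p 0.12). SPH103 went opposite ways: it rose with generation in diploid heads (log2 fold change 1.75 ± 0.60, adjusted p = 0.045) and fell in triploid heads (log2 fold change −3.12 ± 0.73, adjusted p = 0.0082). The call of SPH103 in diploids was lost without D21, D22, D23, D24, D25, D91, D92 or D93 (adjusted p 0.0502 to 0.141) and with no filter (adjusted p 0.053). Tm1 and Zasp66 fell with generation in diploid heads (−2.08 ± 0.46 and −1.86 ± 0.52) and rose in triploid heads (3.35 ± 0.48 and 2.87 ± 0.54), Tm2 was called in neither, and Lop1 (−1.87 ± 0.50) and oskar (−2.05 ± 0.64) fell in triploids. The part of these markers was not tested.

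In male heads SPH42 and SPH103 rose with generation at both ploidies. In haploids 3 of 5 SPH genes were higher at F15 and 0 lower, beside 5 of 26 SP genes higher and 1 lower (29% of members, 14.4% of all genes tested, 8.56% higher and 5.86% lower). In diploids 3 SPH genes were higher and 0 lower, beside 2 SP genes higher and 5 lower (32.3% and 18.3% of all genes tested, 7.82% higher and 10.5% lower). SPH42 was at 46.7, 80.2, 86.8, 92.2 and 99.4 TPM in F3 and 160.2, 215, 221, 247 and 256 TPM in F15 haploid heads, with no overlap (log2 fold change 1.45 ± 0.24, adjusted p = 0.00088), and at 61.5, 61.5, 71.3, 75.5 and 98.8 and 120.99, 154, 159, 178 and 209 TPM in diploid heads (log2 fold change 0.83 ± 0.24, adjusted p = 0.023). SPH103 rose from 8.87, 11.7, 16.6, 19.4 and 31.1 to 46.4, 66.4, 101.8, 116.5 and 132 TPM in haploids (log2 fold change 2.47 ± 0.49, adjusted p = 0.0024) and from 8.89, 14.2, 19.7, 33.7 and 36.6 to 51, 62.3, 90.6, 112.8 and 116.9 TPM in diploids (log2 fold change 1.51 ± 0.47, adjusted p = 0.031), and F3 and F15 did not overlap in either on the TPM scale. SPH21 rose in diploid heads, from 116.05, 138, 176, 189 and 243 to 338, 353, 365, 379 and 380.5 TPM (log2 fold change 0.75 ± 0.23, adjusted p = 0.029). The call of SPH42 in diploids was lost without D112, D12 or D15 (adjusted p 0.0625 to 0.0647) and with the groups fitted alone (adjusted p 0.097). The call of SPH103 in diploids was lost without D112, D115, D12, D14 or D15 (adjusted p 0.0612 to 0.0689) and with the groups fitted alone (adjusted p 0.11). The call of SPH21 in diploids was lost without D11, D112, D114, D115, D12 or D15 (adjusted p 0.0507 to 0.08) and with the groups fitted alone (adjusted p 0.14). SPH125 rose in haploid heads (log2 fold change 6.18 ± 1.40, adjusted p = 0.0063), from 0, 0, 0.28, 0.56 and 0.8 TPM at F3 to 2.23, 15.6, 20.4, 31.4 and 50.8 TPM at F15. oskar rose (1.18 ± 0.33) and Hex83 fell (−1.07 ± 0.31) in haploid heads, Hex83 fell in diploid heads (−0.90 ± 0.30), Lop1, Tm1, Tm2, Zasp66 and Syt1 were called in neither, and their part was not tested.

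Among the proteases of male heads, SP16 rose in haploids from 57.4, 58.9, 59, 65.7 and 68.9 to 123.6, 123.8, 188, 193 and 233 TPM, with no overlap (log2 fold change 1.5 ± 0.26, adjusted p = 0.0011). SP76 was at 0, 0, 0.11, 0.21 and 10.9 TPM at F3 and 14.5, 23.6, 53.1, 89.7 and 130.3 TPM at F15 (log2 fold change 4.8 ± 1.57, adjusted p = 0.047), with no overlap. The call of SP76 was lost without any of 9 single libraries (adjusted p 0.0563 to 0.104) and with no filter (adjusted p 0.065). In diploids SP110 (log2 fold change −0.48 ± 0.09, adjusted p = 0.0016), SP38 (log2 fold change −1.72 ± 0.44, adjusted p = 0.011) and SP68 (log2 fold change −1.17 ± 0.36, adjusted p = 0.031) fell, all with overlap. The call of SP110 was lost by limma on TPM (adjusted p 0.41). The call of SP38 was lost by limma on TPM (adjusted p 0.11). The call of SP68 was lost without D112, D113, D114 or D13 (adjusted p 0.0657 to 0.132), by limma on TPM (adjusted p 0.079) and with the groups fitted alone (adjusted p 0.17). On TPM with limma 10 members were higher and 0 lower in haploids, and 7 and 2 in diploids. With each pair of groups fitted alone 15 members were called in haploids and 2 in diploids, in place of 9 and 10. Without D112 the diploid count was 2, and it was 5 or 6 without D113, D114, D115 or D15.

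In triploid female abdomens 29 of 36 SP genes rose and 2 fell, and 3 of 6 SPH genes rose and 2 fell, 85.7% of members against 75.1% of all genes tested, 40.1% higher and 35% lower. The filter on low counts was run over all female abdomens, so members at or near 0 at F2 could pass only through the F14 groups, and this count in part restates the filter. With these 2 groups fitted alone 24 members were tested, of which 17 were higher and 2 lower at F14. SP100 was at 0, 0, 0.12, 0.21 and 0.37 TPM at F2 and 6.99, 42.5, 188 and 205 TPM at F14 (log2 fold change 9.61 ± 1.05, adjusted p = 2.4e-06), and SPH103 at 0, 0, 0.2, 0.29 and 0.34 and 3.61, 43.4, 127 and 172 TPM (log2 fold change 9.12 ± 1.17, adjusted p = 9.9e-06). SP64 was at 0, 0.18, 0.33, 0.36 and 0.43 TPM at F2 against 4.46 to 222 TPM at F14 (log2 fold change 8.01 ± 1.14, adjusted p = 2.5e-05), and SP33 was at 0 in all F2 triploid abdomens and at 0, 1.5, 9.69 and 21.1 TPM at F14. D89 was the lowest F14 library for each of these, but lay above the F2 range for SP100, SPH103 and SP64. Without D89 their differences were 9.99 (adjusted p = 6.5e-08), 9.51 (adjusted p = 5.0e-07) and 8.4 (adjusted p = 2.3e-06), in that order.

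The members that fell did not share that pattern. Both SPH90 (log2 fold change −1.88 ± 0.34, adjusted p = 0.00018) and SPH42 (log2 fold change −1.31 ± 0.26, adjusted p = 0.00035) were lower at F14, the latter from 133, 135, 139, 151 and 172 TPM to 20.9, 42, 84 and 84.7 TPM. Neither overlapped between generations. SP37 fell with overlap (log2 fold change −0.66 ± 0.28, adjusted p = 0.042). The call of SP37 was lost without D36, D37, D38, D40 or D87 (adjusted p 0.051 to 0.0969) and with the groups fitted alone (adjusted p 0.16). Markers of other tissues moved in the same libraries. Zasp66 was 6.44 ± 0.46 and Syt1 4.11 ± 0.33 higher at F14, all 3 storage protein genes rose (5.42 ± 1.04, 2.35 ± 0.41 and 2.04 ± 0.57 for Hex70b, Hex109 and Hex83), Tm1 rose (2.23 ± 0.21) and Tm2 fell (−0.64 ± 0.11). oskar (−0.93 ± 0.27) and nanos (−1.48 ± 0.38) were lower at F14, and Lop1 was not called. The part of these markers in the members' differences was not tested.

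In male abdomens fewer members were called between generations. In haploids 5 of 32 SP genes rose and 3 fell, and 2 of 4 SPH genes rose and 1 fell (30.6% of members, 29% of all genes tested, 14.8% higher and 14.2% lower). The count of 11 fell to between 5 and 7 without any 1 of the 10 libraries. In diploids 8 SP genes rose and 2 fell, and 2 SPH genes rose and 0 fell (33.3%, against 35.4% of all genes tested, 19.8% higher and 15.6% lower), with 7 members called without D117 and 8 higher and 3 lower on TPM with limma. SPH103 rose in diploids, to 5970.0 to 13224 TPM against 1894 to 3176 TPM at F3, with no overlap (log2 fold change 2.12 ± 0.42, adjusted p = 0.00093), and was not called in haploids (log2 fold change −0.08 ± 0.40, adjusted p = 0.90). SPH21 rose in haploids (log2 fold change 0.72 ± 0.17, adjusted p = 0.0047) and diploids (log2 fold change 1.06 ± 0.17, adjusted p = 0.00020), from 301, 308, 382, 393 and 457 TPM at F3 to 556, 582, 716, 738 and 793 TPM at F15 in the latter, without overlap. SP128 rose in haploids, from 575, 964, 1043, 1408 and 1716 to 2437, 3095, 3361, 4043 and 4260.1 TPM with no overlap (log2 fold change 1.69 ± 0.56, adjusted p = 0.029), and in diploids, from 135, 173, 176, 448 and 1024 to 436, 705, 1615, 2132 and 3499 TPM with overlap (log2 fold change 2.3 ± 0.57, adjusted p = 0.0046). The call of SP128 in haploids was lost without D10, D109, D110, D8 or D9 (adjusted p 0.0505 to 0.0653). SP16 rose in haploids without overlap (log2 fold change 1.55 ± 0.21, adjusted p = 8.7e-05). SP72 (log2 fold change 3.81 ± 1.06, adjusted p = 0.0100) and SP122 (log2 fold change 4.4 ± 1.36, adjusted p = 0.018) rose in diploids, with D117 the highest library for both. The call of SP122 was lost without D117 (adjusted p 0.073) and with the groups fitted alone (adjusted p 0.067). SP120 (log2 fold change 1.1 ± 0.37, adjusted p = 0.034) and SPH126 (log2 fold change 1.51 ± 0.53, adjusted p = 0.039) rose in haploids without overlap. The call of SP120 in haploids was lost without D10, D106, D108, D109, D110, D7, D8 or D9 (adjusted p 0.0545 to 0.0705) and by limma on TPM (adjusted p 0.058). The call of SPH126 in haploids was lost without any of 9 single libraries (adjusted p 0.0539 to 0.0831) and by limma on TPM (adjusted p 0.066). SP67 (log2 fold change −1.26 ± 0.45, adjusted p = 0.041), SP68 (log2 fold change −1.2 ± 0.43, adjusted p = 0.042), SP142 (log2 fold change −0.91 ± 0.33, adjusted p = 0.043) and SPH42 (log2 fold change −0.89 ± 0.30, adjusted p = 0.032) fell in haploids. The call of SP67 was lost without D106, D107, D108, D109, D110 or D6 (adjusted p 0.0557 to 0.342), by limma on TPM (adjusted p 0.087) and with the groups fitted alone (adjusted p 0.063). The call of SP68 was lost without D10, D106, D107, D108, D7 or D8 (adjusted p 0.0728 to 0.124). The call of SP142 was lost without D106, D107, D109, D110, D6, D7, D8 or D9 (adjusted p 0.0592 to 0.103) and with no filter (adjusted p 0.052). The call of SPH42 was lost without D107, D109, D110, D6 or D9 (adjusted p 0.0533 to 0.109). SP64 fell in diploids (log2 fold change −1.58 ± 0.42, adjusted p = 0.0076). Zasp66 (0.70 ± 0.19) and Lop1 (7.99 ± 1.66), high in D119 alone, rose in diploids. Hex70b and Hex83 fell in haploids (−2.85 ± 0.55 and −1.56 ± 0.35) and diploids (−1.4 ± 0.50 and −0.97 ± 0.34), and Hex109 fell in diploids (−1.5 ± 0.30). Syt1 fell in haploids (−1.01 ± 0.16) and diploids (−0.54 ± 0.16), while Tm1 and Tm2 were called in neither, and their part was not tested.

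A further 6 genes of the same pathways, matched by symbol, were followed beside the members: the serine protease inhibitor serpin5, the prophenoloxidase genes ppo1 and ppo3, the recognition gene Gnbp1-2 and the defensin genes Def1-1 and Def1-2, whose products are antimicrobial peptides. In male abdomens 5 of 6 were higher than in heads, with ppo3 lower (of all genes tested, 82.4% were called), and in female abdomens 1 was higher (Gnbp1-2) and 2 lower (Def1-2 and ppo3), against 86.7% of all genes called. In F14 triploid female abdomens 5 of 5 tested rose over F2, where 75.1% of all genes were called, with ppo1 at 0.1 to 0.2 TPM at F2 and 0.81 to 2.01 TPM at F14 (log2 fold change 3.28 ± 0.39, adjusted p = 5.1e-06) and serpin5 at 161 to 217 and 199 to 650.3 TPM (log2 fold change 1.29 ± 0.30, adjusted p = 0.0015). In F14 female abdomens 4 of 5 were higher in triploids than in diploids, against 37.8% of all genes called and 21.9% higher, among them Gnbp1-2 (log2 fold change 1.24 ± 0.40, adjusted p = 0.026). All 4 overlapped between these groups, and D86 and D90A were the highest 2 triploids for each. Gnbp1-2 was at 40.6 to 71.8 TPM in diploids and 29.8, 63.4, 96.1 and 192 TPM in triploids. For serpin5 these were 187 to 229 TPM and 199, 213, 642 and 650.3 TPM. In female heads both defensins changed with the added set, in opposite directions at F2 and F14. At F2 both were lower in triploids (Def1-1 −3.78 ± 1.18, adjusted p = 0.015; Def1-2 −4.04 ± 0.84, adjusted p = 0.00073) and ppo3 was higher, 3 of 6 called against 42.4% of all genes. At F14 both were higher (Def1-1 6.74 ± 1.39, adjusted p = 0.0013; Def1-2 2.1 ± 0.77, adjusted p = 0.047) and Gnbp1-2 and ppo1 lower, 4 of 6 called against 29.7%. The difference between generations passed the test for Def1-1 (interaction 10.52 ± 1.82, adjusted p = 0.00043) and Def1-2 (6.14 ± 1.14, adjusted p = 0.00079). In heads of males 1 of 6 was called with ploidy at F3, serpin5 (log2 fold change 0.80 ± 0.25, adjusted p = 0.037), and 0 at F15, against 16.2% and 0.109% of all genes.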

How the data were processed

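The submitters' processing notes name STAR 2.7.11a and RSEM 1.3.1 for the reads; how they were set and the genome build are not given in the sources used here, and neither is strand. Poly(A) RNA was sequenced, per the labels' protocols. Per gene, the authors deposited expected counts, of which 17.8% were not whole (tolerance 0.001), and TPM, with 14621 and 14613 genes; no column of either lacked a sample.

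Members were taken by symbol. The members, the lists and the tests were chosen with earlier results of these data known. Expected counts were rounded, genes with low counts were dropped (filterByExpr, minimum count 10, minimum total 15), libraries were scaled by TMM, and 1-way group models were fitted with edgeR 4.0.16 in R 4.3.3 (quasi-likelihood, robust), with Benjamini-Hochberg adjustment over all genes tested and a threshold of 0.05. Models for tissue held the groups of 1 sex, models for sex those of 1 tissue, and the rest those of 1 sex and tissue. Total counts of 12.63 to 94.98 M per library limit precision for members at trace levels. The scripts were tested on simulated counts. Alternatives were DESeq2 1.42.0, limma 3.58.1 on log2(TPM + 0.1) for genes at 0.5 TPM or more, no filter, the groups of a contrast alone, and each library left out. Leaving out D31 and D32 together was planned, and tissue in F14 females alone was added after the data were seen.

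Named members were, per comparison, up to 4 called higher and 4 lower by fold change whose higher group averaged 5 CPM or more, the 3 of highest mean TPM in each of the 15 groups, and each SPH gene that passed a filter. Pathway and marker genes were matched by symbol alone.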

Additional observations from a re-analysis of the deposited data

Results flagged for a closer look

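Of 138 pairs of a member and a group whose values the report gives, 11 held a library set apart from the rest of its group by Dixon's 95% criterion. That criterion sets apart about 1 in 20 groups by chance if values follow a normal distribution. TPM is bounded at 0, the library was the highest in all 11 pairs, and pairs that share libraries are not independent. How many pairs chance would set apart here is therefore not known. In abdomens, D96 was the highest F14 diploid female for both SP47 (149 TPM, the next 39.2) and SP48 (112.8 TPM, the next 28.7), and among F14 triploids D90A was highest for SP133 (38.9 TPM, the next 6.56) and D87 for SP50 (237 TPM, the next 40.3). In male abdomens D108 was highest for SP37 (6.02 TPM, the next 0.96) and D7 for SP64 (13.2 TPM, the next 9.74). In heads, D24 was the highest F2 diploid female for SP64 (51.4 TPM, the next 15.6) and SP76 (189 TPM, the next 58.9), D93 the highest F14 diploid female for SP110 (88.6 TPM, the next 61.2), D85 the highest F14 triploid for SP76 (19.7 TPM, the next 0.3) and D1 the highest F3 haploid male for SP76 (10.9 TPM, the next 0.21).

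The effect of an added chromosome set differed between generations in 13 results, by the interaction term of edgeR with adjustment over all genes. In female heads the differences, F14 minus F2 on the log2 scale, were −8.53 ± 2.18 for SP7 (a fitted value, since SP7 was at 0 in all F14 triploids), −5.27 ± 1.02 for SP128, −4.87 ± 0.94 for SPH103, 6.52 ± 1.13 for SP70, 5.45 ± 1.82 for SP102, 3.47 ± 1.13 for SP38, 3.0 ± 0.64 for SP142, 2.53 ± 0.68 for SP133 and 0.98 ± 0.25 for SP110, with adjusted p from 0.00043 to 0.035. In male abdomens, F15 minus F3, they were −5.57 ± 1.65 for SP37, −1.0 ± 0.29 for SP16, 1.77 ± 0.46 for SP142 and 2.2 ± 0.58 for SPH103, with adjusted p from 0.023 to 0.038. The call of SP16 was lost without any of 9 single libraries (adjusted p 0.0538 to 0.0622). The call of SP37 was lost without D10, D108, D119, D120, D16, D17, D6 or D7 (adjusted p 0.0501 to 0.111) and by limma on TPM (adjusted p 0.053). The call of SP7 was lost without D33 (adjusted p 0.0533). SP7 and SP102 were each high mainly in a single group of female heads, so their terms in part restate the filter. The call of SP110 was lost by limma on TPM (adjusted p 0.18).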

How the results depend on the processing

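Counts of called members moved by more than 1.5 times under these alternatives, with the reported count in brackets. By DESeq2 they were 15 (9) for ploidy in F2 female heads, 7 (4) and 1 (0) for ploidy in F3 and F15 male heads, 12 (7) for ploidy in F3 male abdomens, 10 (6) for generation in diploid female heads and 3 (0) for the ploidy effect between generations in male heads. By limma on TPM they were 14 (8) for ploidy in F14 female heads, 14 (9), 1 (0) and 2 (4) for the ploidy effect between generations in female heads, male heads and male abdomens, and 1 (2) for ploidy in F15 male abdomens, which was also 1 with no filter. With the groups of the contrast fitted alone they were 1 (4) and 1 (0) for ploidy in F3 and F15 male heads, 0 (2) for ploidy in F15 male abdomens, 14 (6) and 2 (9) for generation in diploid and triploid female heads, 15 (9) and 2 (10) for generation in haploid and diploid male heads, and 19 (36) for generation in triploid female abdomens, where fewer members were tested. Without both D31 and D32, 12 members were called for ploidy in F2 female heads and 12 for generation in triploid female heads. Apart from fewer genes tested, the cause was not tested.

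With 1 library left out the counts ranged from 27 to 32 (31) for tissue in females, 33 to 35 (33) in males, 7 to 12 (10) and 11 to 16 (15) for sex in heads against diploid and haploid males, and 31 to 36 (33) and 35 to 38 (38) in abdomens. For ploidy they ranged from 6 to 13 (9) and 6 to 11 (8) in F2 and F14 female heads, 2 to 6 (4) and 0 to 0 (0) in F3 and F15 male heads, 7 to 18 (8) in female abdomens, and 5 to 11 (7) and 0 to 7 (2) in F3 and F15 male abdomens. For generation they ranged from 2 to 8 (6) and 6 to 10 (9) in diploid and triploid female heads, 6 to 8 (9) and 2 to 10 (10) in haploid and diploid male heads, 33 to 36 (36) in female abdomens, and 5 to 7 (11) and 7 to 15 (12) in haploid and diploid male abdomens. For the ploidy effect between generations they ranged from 8 to 11 (9) in female heads, 0 to 2 (0) in male heads, where D13 gave 2 and D114 gave 1, and 2 to 5 (4) in male abdomens.

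Of 159 results for a named member, the direction held in every alternative run. The call was lost for 2 by DESeq2, 21 by limma on TPM, 6 with no filter and 21 of those refitted with the groups alone. All genes together had a median log2 change past 0.1 on TPM in several comparisons, and it was −0.601 for ploidy in F14 female heads, −0.576 for the ploidy effect between generations in female heads, −0.548 for tissue in males and 0.419 for generation in diploid female heads, so directions on TPM are relative to it. Members called higher and lower for ploidy in F15 male abdomens were 1 and 1, against 2 and 1 by DESeq2 and 1 and 0 on TPM or with no filter, and for generation in diploid female heads 0 and 6 with no filter. No paired analysis was possible because library names are unique to each group.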
